A study of Mus musculus with 2 samples.

Results

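Regulatory T (Treg) cells, the T cells that hold other immune cells in check, made up 164 of the 21258 cells within the limits on gene number and mitochondrial share in 2 single-cell RNA libraries, 144 from lymph nodes (LNs) and 20 from primary tumours. They were chosen on measured values. A cell had to carry at least 1 unique molecular identifier (UMI, a tag that marks 1 captured RNA molecule) of Foxp3 and at least 1 of Cd3d, Cd3e or Cd3g. It had to carry none of Cd8a or Cd8b1, at most 1 of Cd79a and Cd79b together, and fewer than 10 of Krt8 and Krt18 together. More than 200 genes and no more than 5% mitochondrial UMIs were also required. The levels of these genes follow from the choice and are not results.

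The tumours were EO771-HEVM3, a derivative of the EO771 mouse mammary carcinoma line that was selected in mice for spread from LNs by way of high endothelial venules, the blood vessels through which lymphocytes enter LNs. Primary tumours and paired LNs came from C57BL/6J mice, with tissue of 6 mice pooled for each library and 1 library for each tissue. Tumours were digested for 2 h at 37 °C with collagenases and hyaluronidase, and LNs for 1 h with collagenase P, dispase II and DNase. All mice carried the same tumour, and no tumour-free LN or other tumour line was analysed here. Tissue, digestion and library therefore cannot be told apart, the mice within a pool cannot be separated, and no test between groups was possible. Intervals below are 95% exact intervals that cover counting error only.

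Foxp3 (chrX:7573644-7595245, plus strand, GRCm38) encodes the transcription factor that fixes the Treg fate. Treg cells carry the high-affinity interleukin 2 receptor, whose alpha chain is encoded by Il2ra, and the inhibitory receptor CTLA4, which takes costimulatory ligands from antigen-presenting cells. Central Treg cells recirculate through LNs with homing molecules such as CCR7, whereas effector Treg cells gain receptors of the tumour necrosis factor (TNF) family and settle in tissues and tumours.

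The Treg cells made up 1.28% of all LN cells (1.08% to 1.5%; 144 of 11269) and 0.200% of all tumour cells (0.122% to 0.309%; 20 of 9989). Of cells with a CD3 UMI they were 3.07% in the LN and 2.70% in the tumour, and these intervals overlapped. Of T cells without a CD8 UMI that met the other limits, 6.22% (5.27% to 7.28%; 144 of 2317) were Foxp3-positive in the LN and 10.4% (6.48% to 15.6%; 20 of 192) in the tumour. The order of the tissues thus turned with the denominator, and the last intervals also overlapped. With every cell thinned to 1000 UMIs, the Foxp3-positive share of these T cells was 2.65% in the LN and 6.42% in the tumour (2297 and 132 cells deep enough for this).

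Foxp3 UMIs were found in 0.0621% of LN B cells (3 of 4829, median 1849 UMIs a cell), which should lack the gene, against a median of 2657 UMIs in LN T cells without CD8. In the far deeper LN cancer cells the share was 0.470% (5 of 1064, median 45570 UMIs), and 0.00890% with cells thinned to 1000 UMIs. In tumour cancer cells the share was 0.0879% (6 of 6829) at a median of 16760 UMIs, against 1319 in tumour T cells without CD8. After thinning, the LN share of 2.65% in T cells without CD8 stood above those of CD8 T cells (0.299%) and B cells (0.0370%).

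**Figure D1:**
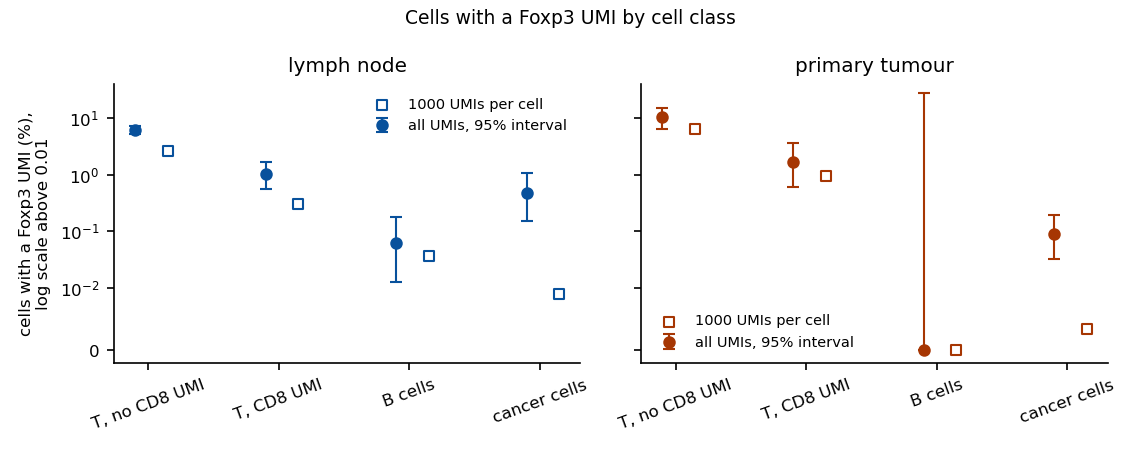
Percent of cells with a Foxp3 UMI (axis logarithmic above 0.01) in T cells without CD8, CD8 T cells, B cells and cancer cells of each library, over all UMIs with exact 95% intervals (circles) and thinned to 1000 UMIs a cell (squares). The T cells without CD8 stand highest in both libraries, at 6.22% in the LN and 10.4% in the tumour.

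Depth differed between the groups. The 144 LN Treg cells held 682829 UMIs (median 2943.5 a cell, range 606 to 26511), so that 1 UMI corresponded to 1.46 CPM, the unit in which a gene's UMIs are scaled to the same fixed total for every group. The 20 tumour Treg cells held 34761 UMIs (median 1167.5, range 638 to 6610), and 1 UMI corresponded to 28.8 CPM. A count of 0 in the tumour Treg cells allows up to 3 UMIs, or 86.3 CPM, as a one-sided limit. A single tumour cell gave 19.0% of the UMIs of its group. The closest cells for comparison were T cells that met every other limit with 0 Foxp3 UMIs, 2173 in the LN (8769068 UMIs) and 172 in the tumour (358195 UMIs), called Foxp3-zero T cells here. Their median depths were 2642 and 1356.5 UMIs, and some may be Treg cells whose Foxp3 RNA was not captured. They were not chosen as CD4 T cells, and a Cd4 UMI was found in 570 of them in the LN and 47 in the tumour. Klrd1, a gene of natural killer and cytotoxic T cells, gave a UMI in 10.5% and 24.4% of them.

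The choice at its edges was as follows. In the LN, 85 of the Treg cells carried 1 Foxp3 UMI and 59 carried 2 to 8, and in the tumour 11 carried 1 and 9 carried 2 to 4. Cd4, the coreceptor of helper and regulatory T cells, gave a UMI in 58 of the 144 LN cells and 7 of the 20 tumour cells. Just outside the rule lay 8 LN and 4 tumour Foxp3-positive cells without a CD3 UMI, and 14 LN and 6 tumour cells with a CD8 UMI. A further 21 LN cells had at least 2 Cd79 UMIs, and 3 LN and 4 tumour cells had 10 or more keratin UMIs. The keratin-positive cells had median depths of 57050 UMIs in the LN and 27138 in the tumour, far above those of the chosen cells. The libraries shared 47 cell barcodes, none of which belonged to a Treg cell.

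The label held against its markers. At least 2 of Il2ra, Ctla4 and Ikzf2 (Helios, a transcription factor of Treg cells) were detected in 123 of the 144 LN Treg cells (85.4%) and in 18 of the 20 tumour Treg cells (90.0%). The same was true of 8.97% of Foxp3-zero T cells in the LN and 14.5% in the tumour. None of the 3 genes was detected in 5 LN Treg cells and in 0 tumour Treg cells. Within the LN Treg cells, Il2ra stood at 135 CPM in those with 1 Foxp3 UMI and at 263 CPM in those with more, whereas Ctla4 (890 and 908 CPM) and Ikzf2 (1126 and 1145 CPM) were alike in level. In the tumour the order for Il2ra was the opposite, at 1010 and 627 CPM from 19 and 10 UMIs. Ctla4 stood there at 1116 and 1505 CPM and Ikzf2 at 2233 and 1943 CPM, and the intervals of each gene overlapped.

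Ctla4 (chr1:60887000-60915832) stood at 899 CPM in LN Treg cells against 112 CPM in LN Foxp3-zero T cells, and at 1295 against 229 CPM in the tumour. These are ratios of 8.0-fold in the LN and 5.66-fold in the tumour. Ikzf2 (chr1:69531214-69687245) stood at 1135 against 131 CPM in the LN and at 2100 against 343 CPM in the tumour. Il2ra (chr2:11642807-11693193) stood at 198 against 21.9 CPM in the LN and at 834 against 137 CPM in the tumour. For all 3 genes, the intervals of the Treg level and the Foxp3-zero level did not overlap in either library.

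**Figure D2:**
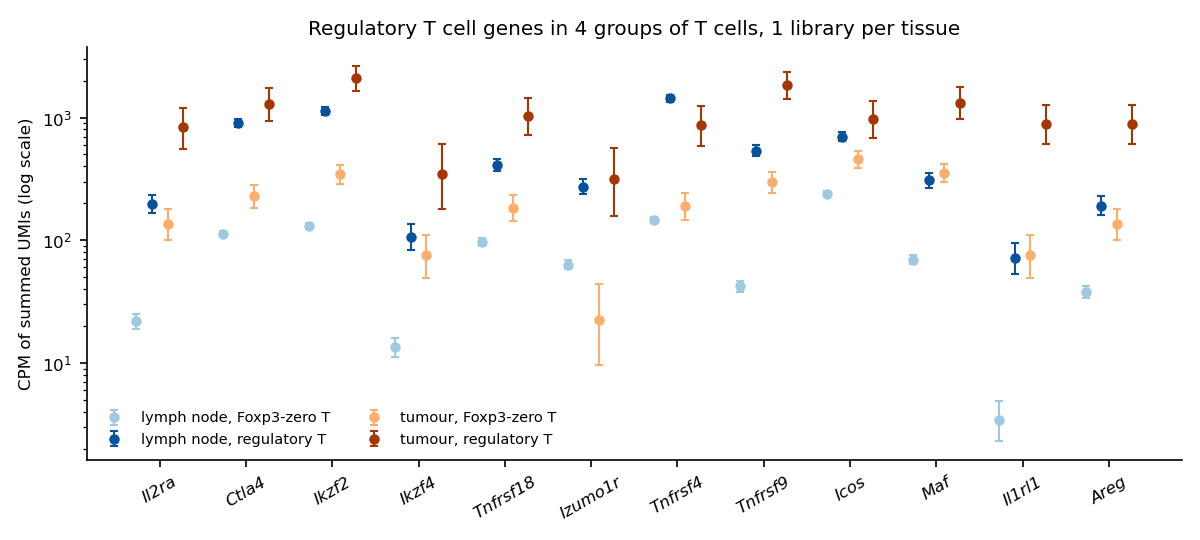
Level of selected genes in CPM (logarithmic axis) in Treg cells and Foxp3-zero T cells of the LN and the tumour, with exact 95% Poisson intervals. Il2ra, Ctla4 and Ikzf2 lie higher in Treg cells than in Foxp3-zero T cells of the same library, and the tumour Treg cells have the widest intervals.

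For the comparisons over all genes, a gene counted as higher or lower when its summed level differed at least 2-fold among genes with a mean of at least 100 CPM over both groups, and log2 ratios were taken with 0.5 counts added to each sum. A gene could meet this level through its higher group alone, so list counts and medians are a description and no support for a direction. In the LN, 1471 genes met this level. Of them, 7.27% were at least 2-fold higher in Treg cells and 3.26% at least 2-fold lower, and the median log2 ratio was 0.12.

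Of the 16 genes of a Treg identity list, 8 met the level in the LN. Of these, 7 were at least 2-fold higher in Treg cells and 0 lower, with a median log2 ratio of 2.1. Besides Il2ra, Ctla4 and Ikzf2, Tnfrsf18 (GITR, a costimulatory receptor) stood at 410 against 96.7 CPM (log2 ratio 2.09, 1.88 to 2.28). Izumo1r (folate receptor 4) stood at 274 against 63.3 CPM (2.12, 1.87 to 2.35). Lower-level members showed wide ratios as well. Itgb8, the integrin chain with which Treg cells release active TGF-beta, stood at 70.3 against 5.36 CPM (3.71, 3.10 to 4.33), and Lrrc32 (GARP, which holds latent TGF-beta on the surface) at 138 against 26.3 CPM (2.39, 2.02 to 2.74). Ikzf4 (Eos, a partner of Foxp3) stood at 107 against 13.5 CPM (2.99, 2.55 to 3.42).

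Of the 27 genes of an effector and tissue Treg list, 10 met the level in the LN, of which 9 were at least 2-fold higher in Treg cells and 0 lower (median log2 ratio 1.74). The genes with the highest ratios among all that met the level with at least 20 UMIs were 2 costimulatory TNF receptors. Tnfrsf9 (4-1BB, chr4:150914562-150946102) stood at 538 against 42.3 CPM (log2 ratio 3.67, 3.46 to 3.88), and Tnfrsf4 (OX40, chr4:156013843-156016612) at 1435 against 146 CPM (3.30, 3.17 to 3.42). A UMI of Tnfrsf9 was found in 94 of 144 Treg cells and in 182 of 2173 Foxp3-zero T cells. The costimulatory receptor Icos stood at 700 against 240.0 CPM, and the transcription factors Maf and Rora at 308 against 69.5 CPM and 492 against 132 CPM. Areg, which encodes the repair factor amphiregulin, stood at 192 against 38.0 CPM. Il1rl1, the interleukin 33 receptor of tissue Treg cells, stood at 71.8 against 3.42 CPM, with UMIs in 27 of the 144 cells. Klrg1, a receptor of terminally differentiated cells, stood at 36.6 against 1.25 CPM. Ccr8, a chemokine receptor of tumour Treg cells, gave 6 UMIs in the LN Treg cells and 0 in the tumour Treg cells, so its level could not be compared between them.

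Of the TNF receptor and NF-kB list, 4 of the 7 genes that met the level were at least 2-fold higher in LN Treg cells and 0 lower (median log2 ratio 1.15). Among them, Tnfrsf1b (TNFR2) stood at 176 against 79.5 CPM and Traf1, an adaptor of these receptors, at 316 against 127 CPM. The NF-kB subunit Rel, counted in the T cell receptor signal list, stood at 589 against 215 CPM, and it was the 1 gene of 6 there that was 2-fold higher (list median 0.06). The glycolysis list had 0 of 7 genes past 2-fold in either direction (median 0.18). In the interleukin 2 response list 1 of 5 genes was at least 2-fold lower and 0 higher. This was Bcl2l11 (BIM, which promotes cell death), at 87.9 against 194 CPM. Cish, which interleukin 2 signalling induces, did not meet the level and stood at 164 against 34.9 CPM (2.24, 1.91 to 2.55).

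Other genes among the 12 with the highest LN ratios were Hopx (379 against 43.9 CPM), a cofactor linked to induced Treg cells, Stx11 (209 against 25 CPM), which encodes a syntaxin, Dusp4 (204 against 39.9 CPM), a MAP kinase phosphatase, and Pycard (410 against 60.2 CPM), the inflammasome adaptor. The linker histone H1f5 (447 against 84.7 CPM) was also among them.

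The central and recirculating list ran the other way in the LN. Of its 16 genes, 8 met the level, with 0 at least 2-fold higher, 3 at least 2-fold lower and a median log2 ratio of -0.87. Lef1 stood at 98.1 against 315 CPM (-1.67, -2.05 to -1.33), Satb1 at 325 against 949 CPM (-1.54, -1.74 to -1.35) and Tcf7 at 82.0 against 173 CPM (-1.06, -1.49 to -0.69). These encode nuclear factors of naive and central T cells. S1pr1, the receptor for leaving the LN, stood at 176 against 344 CPM, and the transcription factor Klf2, which drives it, at 284 against 490 CPM. The homing receptor gene Ccr7 stood at 536 against 515 CPM, with a log2 ratio of 0.06 whose interval spanned 0.

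Endothelial and haemoglobin RNA was higher in the LN Foxp3-zero group. The 5 genes of the endothelial list summed to 512 CPM in LN Foxp3-zero T cells and 79.1 CPM in LN Treg cells, with Cdh5 and Kdr at 0 in the Treg cells. The 4 haemoglobin genes summed to 508 and 1.46 CPM, but single cells carried them, with 2236 of the 2259 Hbb-bs UMIs of LN Foxp3-zero T cells in 1 cell. The B cell list ran the other way, at 440.2 CPM in LN Foxp3-zero T cells and 1198 CPM in LN Treg cells. Cells holding 2 or more UMIs of the myeloid, dendritic, cancer and epithelial, fibroblast, endothelial and haemoglobin lists together were left out in a setting chosen after seeing the data, called the non-lymphoid filter here. It did not count the B cell and natural killer lists, of which the kept LN Treg cells held 755 and 58.3 CPM. The filter kept 108 Treg and 1794 Foxp3-zero cells in the LN. Of the 12 genes with the lowest LN ratios over all cells, Gng11, Procr, Dcpp3, Sparc and Cald1 had log2 ratios above 0 in this setting (0.33, 0.40, 0.62, 0.71 and 0.93), and the 12 are not read further. The background in the LN was then 10.5% higher and 2.52% lower. The identity list then had 9 of 9 genes at least 2-fold higher (median 2.49), the effector list 10 of 10 (1.95), and the central list 5 of 9 at least 2-fold lower (-1.07). The ratio of Ccr7 became -0.52. The lowest ratio in that setting was that of Ccl5, a chemokine of cytotoxic and effector T cells, at 53.2 against 562 CPM (-3.37, -4.09 to -2.78), with UMIs in 10.2% of the kept Foxp3-zero T cells. The other genes among the 12 lowest included Lef1, Tcf7, Satb1, Klf3, Myb and Tgfbr2.

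In the tumour, 1830 genes met the level. Of them, 20% were at least 2-fold higher in Treg cells than in Foxp3-zero T cells and 5.30% at least 2-fold lower, with a median log2 ratio of 0.32. These shares stand beside the counts that follow, since 20 cells give few UMIs a gene. The identity list had 10 of 11 genes at least 2-fold higher and 0 lower (median 2.50). Tnfrsf18 stood at 1036 against 184 CPM (2.50, 1.86 to 3.10) and Izumo1r at 316 against 22.3 CPM (3.80, 2.38 to 5.34, from 11 and 8 UMIs). Itgb8 stood at 230.1 against 11.2 CPM from 8 and 4 UMIs. Nrp1, a semaphorin receptor of thymic Treg cells, had 0 UMIs in the tumour Treg cells, against 94.9 CPM in tumour Foxp3-zero T cells. With the limit for a count of 0, this is a difference of at least 1.1-fold only, so no loss of Nrp1 is read.

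The effector list had 14 of 19 genes at least 2-fold higher in tumour Treg cells and 1 lower (median 1.44). Tnfrsf9 was found in 19 of the 20 cells and stood at 1841 against 296 CPM (2.64, 2.17 to 3.10). Il1rl1 stood at 892 against 75.4 CPM (3.56, 2.77 to 4.37), with all of its 31 UMIs in 8 cells, and Areg at 892 against 137 CPM (2.71, 2.01 to 3.38), with 31 UMIs in 7 cells. Tnfrsf4 stood at 863 against 190 CPM and Maf at 1323 against 355 CPM. The chemokine receptors Ccr2 and Cxcr3 stood at 259 and 201 CPM, each at least 3-fold above the Foxp3-zero T cells. The 1 lower gene was Cxcr6, a receptor of tissue-resident T cells, at 115 against 567 CPM (-2.13, -4.19 to -0.92). The levels of Ccr2, Cxcr3 and Cxcr6 in tumour Treg cells rest on few UMIs, since 1 UMI corresponds to 28.8 CPM there.

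The central list did not run as it had in the LN, with 3 of 7 genes at least 2-fold higher in tumour Treg cells, 0 lower and a median log2 ratio of 0.81. Ccr7 stood at 230.1 against 69.8 CPM (1.78, 0.36 to 2.92) and the costimulatory receptor Cd27 at 288 against 75.4 CPM. These rest on 8 and 10 UMIs in the Treg cells, and Ccr7 was found in 5 of the 20. The median was -0.22 with cells thinned to 1000 UMIs and 0.21 with the non-lymphoid filter. Tcf7 had 0 UMIs in tumour Treg cells, against 106 CPM in tumour Foxp3-zero T cells. With the limit for a count of 0, this is at least 1.23-fold, and at least 1.02-fold with the non-lymphoid filter, so little can be read from it.

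**Figure D3:**
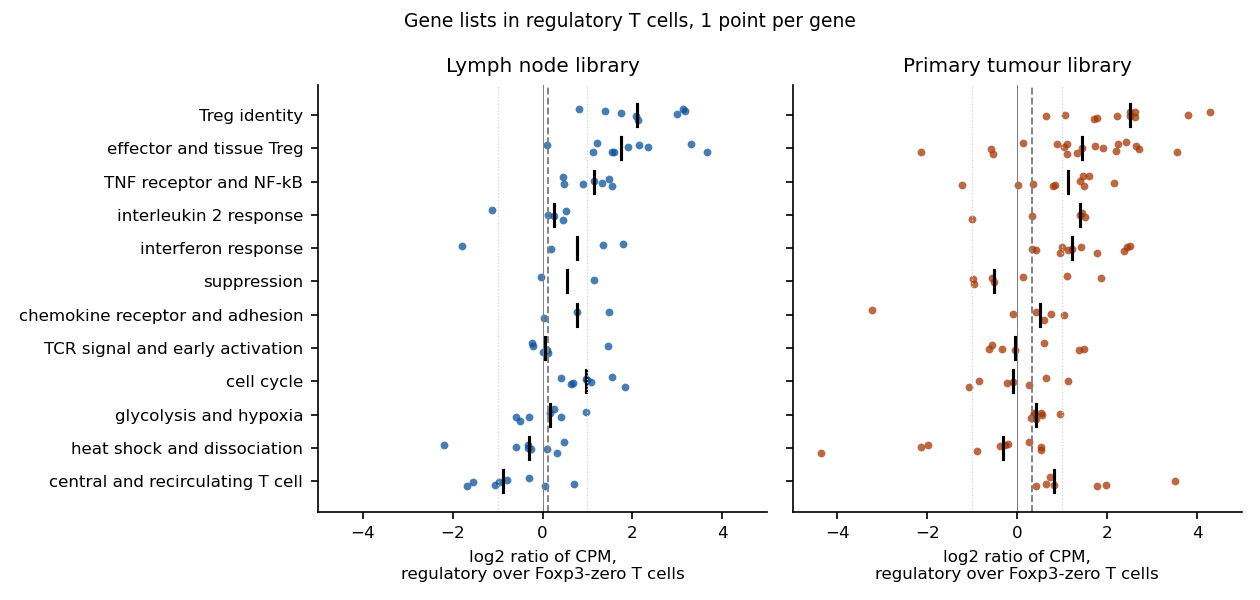
Log2 ratio of Treg cells over Foxp3-zero T cells in the LN and in the tumour, 1 point for each gene of a list that met the level, with list medians (black bars) and the median of all genes (dashed). The medians of the identity and effector lists lie above the median of all genes in both libraries. The central list has a median of -0.87 in the LN and 0.81 in the tumour. Genes could meet the level through their higher group alone, so the points and medians are a description.

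The interferon response list had 7 of 11 genes at least 2-fold higher in tumour Treg cells and 0 lower (median 1.22). Gbp2, an interferon-induced GTPase, stood at 547 against 106 CPM (2.38, 1.49 to 3.20). In the LN the same list had 2 of 4 genes higher and 1 lower. The lower gene, Bst2, stood at 161 against 557 CPM (-1.78) but at a log2 ratio of 0.54 with the non-lymphoid filter. Pim1, a kinase induced by cytokines, stood at 1841 against 684 CPM and Cish at 547 against 212 CPM in the tumour, where 3 of 5 genes of the interleukin 2 response list were higher and 1 lower. The TNF receptor and NF-kB list had 5 of 10 genes higher and 1 lower, and the glycolysis list 0 of 7 in either direction. The heat shock and dissociation list had 0 of 10 higher and 3 lower in the tumour, and 0 of 8 higher and 1 lower in the LN. Its tumour median was -0.33, but 0.40 with the non-lymphoid filter, where 1 of 7 was higher and 2 lower. Among the lower genes was Hspa1b, with 0 UMIs in tumour Treg cells against 296 CPM.

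The helper T cell cytokine list was low in the LN, with a sum of 26.4 CPM in Treg cells and 52.5 CPM in Foxp3-zero T cells. In the tumour it summed to 1266 CPM in Treg cells and 734 CPM in Foxp3-zero T cells, but all 44 Treg UMIs were of Tnf and lay in the deepest cell, and the sum was 0 with the non-lymphoid filter. Ifng, which encodes interferon gamma, stood at 4.39 against 15.2 CPM in the LN and had 0 UMIs against 173 CPM in the tumour. Il2 gave 2 UMIs in the LN Treg cells and 0 in the tumour Treg cells. The suppression list had 1 of 2 genes at least 2-fold higher and 0 lower in the LN, and 2 of 7 higher and 0 lower in the tumour, where its median log2 ratio was -0.51 and its sum 2100 CPM in Treg cells against 2538 CPM in Foxp3-zero T cells. With the non-lymphoid filter both turned, to 0.10 and to 1974 against 1341 CPM, with 1 of 5 genes higher and 0 lower, so no direction is read from this list in the tumour. Il10 stood at 64.4 against 3.99 CPM in the LN (4.01, 3.34 to 4.70), with UMIs in 16 of 144 cells, and gave 1 UMI in the tumour Treg cells. Ebi3, a subunit of interleukin 35, stood at 23.4 against 1.71 CPM in the LN, and Tgfb1 at 259 against 118 CPM. Gzmb, the cytotoxic protease granzyme B, stood at 43.9 against 11.5 CPM in the LN and at 345 against 97.7 CPM in the tumour.

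A single tumour cell carried much of the RNA that was not of T cell kind. It was the deepest of the 20, with 6610 UMIs, 1 Foxp3 UMI and 2 CD3 UMIs, and it held 75 of the 76 UMIs of the myeloid list in its group. It held all 44 UMIs of Tnf, all 30 of Clec4e and 47 of the 48 of Wfdc17, the genes behind Il1rl1 in the tumour ranking. With the non-lymphoid filter, the tumour comparison kept 16 Treg and 109 Foxp3-zero cells, and the background was 23.2% higher and 5.38% lower. In that setting the identity list had 10 of 11 genes at least 2-fold higher (median 2.31), the effector list 10 of 17 higher and 1 lower (1.57) and the interferon list 8 of 11 higher (1.53). The glycolysis list then had 3 of 7 genes higher and 0 lower (median 0.94), and the TNF receptor and NF-kB list 5 of 10 higher and 0 lower. The log2 ratio of Il1rl1 was 3.19 and that of Areg 2.30. The Foxp3-zero T cells of the tumour held 2197 CPM of haemoglobin genes (370 of 375 Hbb-bs UMIs in 1 cell), 1535 CPM of the myeloid list, 499.7 CPM of the natural killer list and 489 CPM of the fibroblast list, and Spp1, Mmp12, Cxcl5 and the haemoglobin genes were among the 12 lowest ratios. The filter removed most of this RNA but not that of the natural killer list, which stood at 751 CPM in the kept Foxp3-zero T cells and 43.9 CPM, or 1 UMI, in the kept Treg cells. Klrd1 and Nkg7, genes of natural killer and cytotoxic T cells, and Ccl5 (176 against 2287 CPM) were among the 12 lowest ratios there. The kept tumour Treg cells held 1053 CPM of the B cell list, against 228 CPM in the kept Foxp3-zero T cells.

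Tumour Treg cells were then set against LN Treg cells. Of 1742 genes that met the level, 28.8% were at least 2-fold higher in the tumour and 9.76% at least 2-fold lower (median log2 ratio 0.37). A gene could meet the level, a mean over both groups, through the tumour alone, so the list counts and medians of this comparison are a description and no support for a direction. The effector list had 12 of 18 genes higher and 0 lower, with a median of 1.73. Il1rl1 stood at 892 CPM in tumour Treg cells and 71.8 CPM in LN Treg cells (3.64, 2.94 to 4.31), and at least 1 UMI was found in 8 of 20 and 27 of 144 cells. Maf stood at 1323 and 308 CPM (2.12, 1.61 to 2.57), Areg at 892 and 192 CPM (2.23, 1.60 to 2.79) and Tnfrsf9 at 1841 and 538 CPM (1.79, 1.37 to 2.16). Tnfrsf4 ran the other way, at 863 and 1435 CPM (-0.71, -1.31 to -0.21), but with the non-lymphoid filter the ratio was -0.36 with an interval that spanned 0 (-0.97 to 0.16). After thinning, Tnfrsf9 was detected in 75% of 12 tumour and 38.2% of 141 LN Treg cells. Without the Cd79 and keratin limits, a setting with 168 LN and 24 tumour Treg cells, among them the 4 keratin-rich tumour cells with a median of 27138 UMIs, the medians of the effector and identity lists were 0.01 and -0.20.

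The identity list had 5 of 12 genes at least 2-fold higher in the tumour and 0 lower (median 0.88). Il2ra stood at 834 and 198 CPM (2.1, 1.45 to 2.66) and Il2rb, the beta chain of the same receptor, at 1410 and 395 CPM (1.85, 1.36 to 2.28). Ctla4 differed less, at 1295 and 899 CPM (0.54, 0.06 to 0.96), and the intervals of Izumo1r (0.27, -0.82 to 1.08) and Cd5 (0.04, -1.05 to 0.84) spanned 0. The interferon list had 7 of 10 genes higher and 0 lower (median 2.59), and the first 4 named here stood below 100 CPM in the LN. Gbp2 stood at 547 and 52.7 CPM, Gbp4 at 316 and 41.0 CPM, and Zbp1 at 288 and 35.2 CPM. Ifit1 stood at 403 and 2.93 CPM, from 14 UMIs in 6 tumour cells and 2 UMIs in the LN. Ly6a, above 100 CPM in both tissues, stood at 949 and 221 CPM (2.12, 1.51 to 2.65).

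The chemokine receptor and adhesion list had 4 of 6 genes higher in the tumour and 1 lower. Cxcr4 (432 and 82.0 CPM) and Itga4 (432 and 74.7 CPM), which encodes the integrin alpha 4 chain, were higher, and both stood below 100 CPM in the LN. Its partner Itgb1 was lower, at 28.8 and 224 CPM (-2.38, -8.27 to -0.46, from 1 tumour UMI), but at a log2 ratio of 0.18 without the Cd79 and keratin limits. Ccr7 stood at 230.1 and 536 CPM (-1.13, -2.44 to -0.23), within a central list that had 2 of 7 genes higher and 1 lower (median 0.45, but -0.35 with cells thinned to 1000 UMIs). The ratio of Ccr7 was 0.26 in the 58 LN and 7 tumour cells with a Cd4 UMI. Hif1a, the oxygen-regulated transcription factor, stood at 1237 and 332 CPM (1.91, 1.39 to 2.37), with UMIs in 19 of 20 tumour cells. The glycolysis and hypoxia list as a whole had 2 of 7 genes higher and 0 lower. The heat shock and dissociation list had 1 of 7 higher and 0 lower, with a median of -0.38, but of 0.16 with the non-lymphoid filter.

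**Figure D4:**
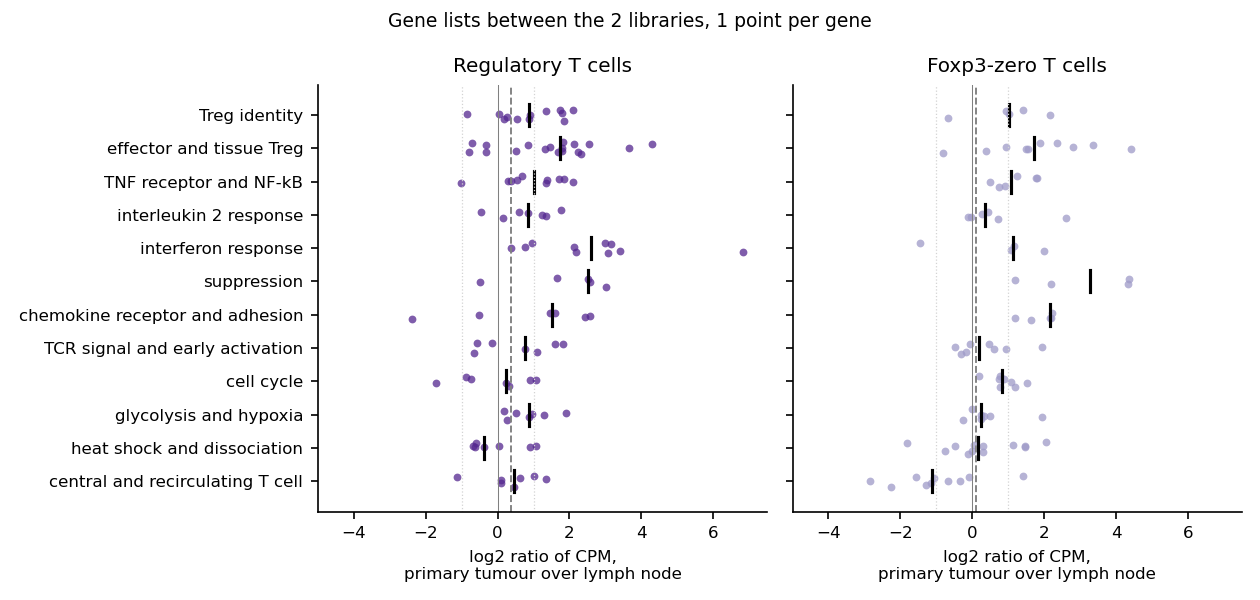
Log2 ratio of the tumour over the LN in Treg cells and in Foxp3-zero T cells, 1 point for each gene of a list that met the level, with list medians (black bars) and the median of all genes (dashed). Genes could meet the level through the tumour alone, and the 2 panels hold different genes, so the points and medians are a description. Il1rl1, of the effector list, lies at 3.64 in Treg cells.

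The 12 highest tumour-over-LN ratios included Saa3, Clec4e, Wfdc17, Tnf, Il1b, Fcer1g and Cxcl2, which rest on the deepest tumour cell: it held all 52 UMIs of Saa3, all 23 of Il1b, all 40 of Fcer1g and 129 of 130 of Cxcl2. With the non-lymphoid filter, the background was 32.9% higher and 8.81% lower, and the 12 highest were Mt2 and Mt1 (metallothioneins, which bind metals), Il1rl1, Mxd1, Areg, Hif1a, Ly6a, Tent5a, Ahnak, Maf, Gimap4 and Ccnd2. In Foxp3-zero T cells with this filter, the tumour-over-LN log2 ratios of all 12 also lay above 0. They were larger than in Treg cells for Mt1, Il1rl1, Ly6a, Tent5a, Ahnak and Maf, and smaller for the others. This difference was not tested. Mt2, Mt1 and Ly6a stood at 965, 1228 and 1228 CPM in the kept tumour Treg cells. Over the whole tumour library these stood at 859, 1574 and 1029 CPM, and the others of the 12 lower than in these Treg cells. The log2 ratio of Mt2 was 5.76 over all Treg cells, but 17 of its 23 tumour UMIs lay in 1 cell. In this setting the effector list had 12 of 17 genes higher (median 1.79), the interferon list 10 of 11 (2.17), the identity list 6 of 12 (0.84) and the glycolysis and hypoxia list 4 of 7 (1.36). Among the 12 lowest ratios over all Treg cells were Pycard (57.5 and 410 CPM) and Phgdh, an enzyme of serine synthesis, with 0 tumour UMIs against 234 CPM in the LN.

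The Foxp3-zero T cells of the same libraries, which share no cell with the Treg cells but share their tissue, digestion and library, were also set against each other. Their effector list had 7 of 10 genes at least 2-fold higher in the tumour (median log2 ratio 1.72, against 0.11 over all genes), where 16.5% of 1562 genes were higher and 7.04% lower. They had in their interferon list 3 of 4 genes higher and 1 lower (1.12). Their central list had 6 of 10 genes at least 2-fold lower and 1 higher (-1.12). Other genes met the level here than in the Treg cells, so these medians are not set against those of the Treg cells. Their identity list had 3 of 5 genes higher and 0 lower (1.03). Il2ra stood at 137 CPM in tumour and 21.9 CPM in LN Foxp3-zero T cells (2.65, 2.16 to 3.10), Tnfrsf9 at 296 and 42.3 CPM (2.81, 2.48 to 3.12) and Il1rl1 at 75.4 and 3.42 CPM (4.46, 3.66 to 5.26). Of these 3, Il2ra and Il1rl1 did not meet the level in Foxp3-zero T cells. All 3 had ratios above 0 in Foxp3-zero T cells as in Treg cells. Whether the tissues differed in another way in Treg cells than in Foxp3-zero T cells was not tested.

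The Treg cells varied among themselves. With each cell thinned to 1000 UMIs, which left out 3 LN and 8 tumour cells, LN Treg cells carried a median of 7 UMIs of the effector list (range 0 to 27) and 2 of the central list (range 0 to 14). Of these 141 cells, 106 had more effector than central UMIs, 30 had more central than effector UMIs and 116 had both. Among LN Foxp3-zero T cells, 1685 of 2156 had more central than effector UMIs. The 12 tumour Treg cells that could be thinned carried a median of 11 effector UMIs (range 2 to 30) and 1 central UMI (range 0 to 5). Of them, 11 had more effector than central UMIs and 0 had more central than effector UMIs. Of 120 tumour Foxp3-zero T cells, 86 had more effector and 25 more central UMIs, with medians of 7 and 2. The effector list is the longer one, with 27 genes against 16.

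**Figure D5:**
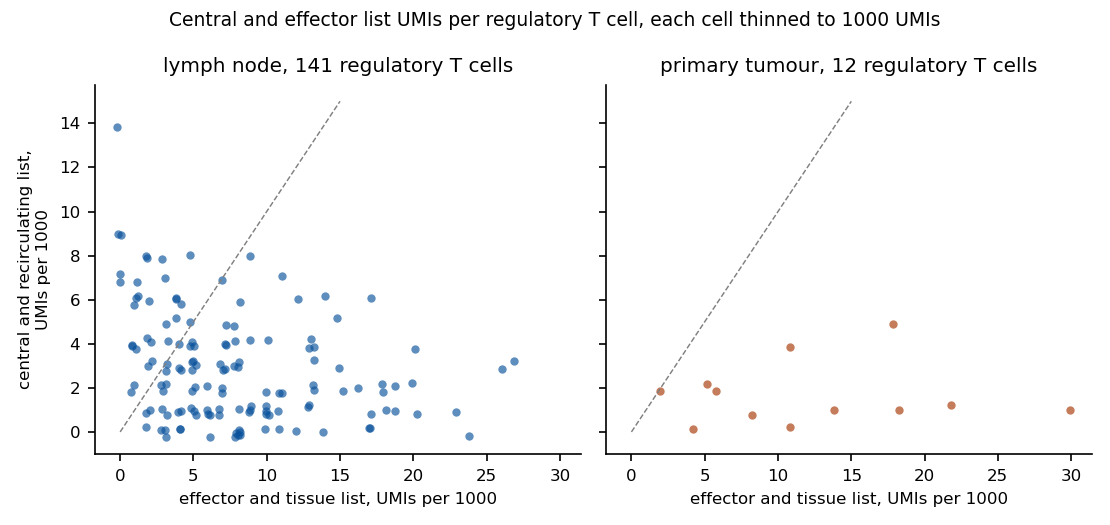
UMIs of the central list (vertical) against UMIs of the effector list (horizontal) in single Treg cells after thinning to 1000 UMIs a cell, for 141 LN cells and 12 tumour cells, with points shifted slightly at random and a dashed line at equal counts. The LN cells spread over both axes, with a median of 7 effector and 2 central UMIs, and the tumour cells lie along the effector axis, with medians of 11 and 1.

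A UMI of the proliferation genes Mki67 or Top2a was found in 41 of 144 LN Treg cells (28.5%, 21.3% to 36.6%) and in 10.6% of LN Foxp3-zero T cells (9.32% to 11.9%). The positive cells were deep, with medians of 7525 UMIs in the Treg cells and 3357.5 in the Foxp3-zero T cells. Thinned to 1000 UMIs, Top2a was detected in 11.2% of LN Treg cells and 3.25% of LN Foxp3-zero T cells. Stmn1 and Hmgb2, which dividing cells hold at high levels, stood at 709 against 199 CPM and 1974 against 672 CPM. In the cell cycle list 3 of 8 genes were at least 2-fold higher in LN Treg cells and 0 lower (median 0.98), and in tumour Treg over tumour Foxp3-zero T cells 1 of 7 was higher and 1 lower (median -0.09, but 0.41 with the non-lymphoid filter). In the tumour, 4 of 20 Treg cells and 26 of 172 Foxp3-zero T cells carried such a UMI, shares whose intervals overlapped (5.73% to 43.7% and 10.1% to 21.4%).

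Ighm, the heavy chain of immunoglobulin M, was among the 12 highest genes in the LN. It stood at 306 CPM in LN Treg cells against 51.0 CPM in LN Foxp3-zero T cells (2.59, 2.34 to 2.83), with UMIs in 75 of the 144 cells, and at 229.7 CPM over the whole LN library. In the tumour it stood at 403 against 25.1 CPM (3.98, 2.69 to 5.39), with UMIs in 8 of the 20 cells, and at 1.36 CPM over the whole tumour library. The B cell list summed to 1198 CPM in LN Treg cells with all 10 genes detected, and to 2186 CPM in tumour Treg cells with 5 of 10 detected. Cd74, the invariant chain of antigen presentation, stood at 507 CPM in the LN and 921 CPM in the tumour, where 23 of its 32 UMIs lay in the deepest cell. The defining B cell gene Ms4a1 gave 1 UMI in the LN Treg cells and 0 in the tumour Treg cells, where Igkc, the kappa light chain, was also at 0. In LN Treg cells Igkc stood at 99.6 CPM against 3780 CPM over the whole LN library.

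The cancer and epithelial list summed to 99.6 CPM in LN and 173 CPM in tumour Treg cells, the dendritic list to 14.6 and 0 CPM, the natural killer list to 48.3 and 28.8 CPM and the fibroblast list to 4.39 and 86.3 CPM, which is 3 UMIs in each. The myeloid list summed to 114 CPM in LN Treg cells and to 2186 CPM in tumour Treg cells, against 1535 CPM in tumour Foxp3-zero T cells, and to 43.9 CPM in tumour Treg cells with the non-lymphoid filter. The part of these RNAs in results other than those given above was not tested.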

How the data were processed

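RNA of single cells was measured with UMIs in 2 libraries (22620 genes each). The authors made the deposited UMI counts, which are raw and not normalised, with Cell Ranger on GRCm38 (version 5.0.0 per the file headers, 2.1.1 per the submitters' processing notes). Counts were summed over cells per library and group and scaled to CPM with numpy 2.4.6, pandas 2.3.3 and scipy 1.17.1. With 1 library per tissue no test was made. Levels have exact Poisson intervals, shares Clopper-Pearson intervals and ratios an exact interval for the split of 2 counts. PCR and cell capture add error that these intervals do not cover. The low-level limit was a mean of 100 CPM over both groups, so a gene can meet it through its higher group alone.

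Named genes were the 12 highest and 12 lowest log2 ratios of each comparison with at least 20 UMIs in the higher group, and the members of 14 gene lists. The 10 lists of other cell types are given as sums, of which gamma delta T cell RNA was 7.32 CPM of Trdc in LN and 0 in tumour Treg cells, and CD8 RNA was 0 by the rule. The members and lists were chosen with earlier results of these data known. The lipid list had 1 of 1 gene higher in the LN, Fabp5, and 0 of 2 in the tumour. Gene positions are from GENCODE annotation of GRCm38.

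Scrublet (scanpy 1.11.5) marked 0 LN and 633 tumour cells, so its calls were not used and no doublets were removed. Of the Treg cells 3 LN and 0 tumour cells were among the top 6% of scores, and none had over 6000 genes. Alternatives were other limits on genes, mitochondrial share, Foxp3, Cd4, Cd79, keratin and myeloid UMIs, thinning, equal weight per cell, centring on the median ratio and no CPM minimum. Intervals and ratios were tested on simulated data. Some members of the lists are counted in them but are not reported here by name.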

Additional observations from a re-analysis of the deposited data

Results flagged for a closer look

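Foxp3 UMIs were found in cells outside the Treg definition. Of T cells with a CD8 UMI that met the other limits, 1.02% carried Foxp3 in the LN (14 of 1368, 0.561% to 1.71%) and 1.68% in the tumour (6 of 357, 0.619% to 3.62%), against 0.0621% of LN B cells. All 6 tumour cells and 13 of the 14 LN cells held UMIs of at least 2 of Il2ra, Ctla4 and Ikzf2, and 6 and 2 of them carried at least 2 Foxp3 UMIs in the LN and tumour. Their median depths of 7551 and 2908 UMIs lay above those of the Treg cells, at 2943.5 and 1167.5. They enter the report only in the share of CD8 T cells with a Foxp3 UMI, and no gene was compared in them.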

How the results depend on the processing

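Across 13 other settings, the 19 shares, counts and list medians that answer a comparison moved by more than their counting interval or 1.5 times in 42 cases and did not in 185. The other 371 values moved in 871 cases, turned from a difference of at least 2-fold to the other direction in 39 and did neither in 3847. Smaller ratios that changed sign are not among the 39. None of the 19 moved with at most 6000 genes, without the top 6% of doublet scores or with up to 10% mitochondrial UMIs, and none of the 15 run without the deepest Treg cell of each library, where the shares were not recomputed. In the 20 tumour Treg cells 3 UMIs are 86.3 CPM, which limits what can be read of low genes there. Leaving out the deepest cells and the non-lymphoid filter were settings chosen after seeing the data. The cause of the changes below was not tested. No paired analysis was possible because each tissue has 1 library, both numbered replicate 1. No library could be left out for the same reason, and 58 gene values with 3 or fewer UMIs in both groups got no fold.

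With at least 2 Foxp3 UMIs, Treg cells were 0.524% of all LN cells and 0.0901% of all tumour cells, and 2.64% and 4.97% of these and the Foxp3-zero T cells together. With a Cd4 UMI required of both groups they were 0.515% and 0.0701% of all cells, and in the LN 58 Treg cells were 9.24% of these and the 570 Foxp3-zero T cells left. With the non-lymphoid filter they were 0.958% of LN cells. The number of genes that meet the level can change with the setting, so the counts below are not shares. The main counts were 107 higher and 48 lower of 1471 genes in the LN and 366 and 97 of 1830 in the tumour. Between tumour and LN Treg cells they were 502 and 170 of 1742. Genes at least 2-fold higher in LN Treg cells than in Foxp3-zero T cells numbered 184 without cells with 2 myeloid UMIs and 3021 without the CPM minimum. The lower genes numbered 75 without the Cd79 and keratin limits, 30 with equal weight per cell and 2097 without the CPM minimum. In the tumour, the higher genes numbered 651 with at least 2 Foxp3 UMIs, 764 with a Cd4 UMI, 127 without the Cd79 and keratin limits, 735 after thinning, 229 centred on the median ratio and 4440 without the CPM minimum. The lower genes there numbered 40 without the Cd79 and keratin limits, 181 when centred and 1182 without the CPM minimum. Between tumour and LN Treg cells, the higher genes numbered 813 with a Cd4 UMI, 177 without the Cd79 and keratin limits, 792 after thinning, 334 when centred and 5463 without the CPM minimum, and the lower genes 317 when centred and 860 without the minimum.

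In the LN, the median log2 ratio of the identity list was 1.38 with a Cd4 UMI and 2.89 without the Cd79 and keratin limits, and that of the effector list 1.05 and 2.40. In the tumour, without these limits, the identity, effector and central medians were 3.80, 2.73 and -0.12. The tumour central median was 3.08 with a Cd4 UMI, -0.22 after thinning and 0.21 with the non-lymphoid filter. Between tumour and LN Treg cells, the identity and effector medians were -0.20 and 0.01 without the Cd79 and keratin limits, and the central median was -0.35 after thinning.

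Direction turned for these log2 ratios of at least 2-fold, of Treg over Foxp3-zero T cells. In the LN, Bst2 was 0.14 with at most 6000 genes, 0.44 without cells with 2 myeloid UMIs, 0.20 with equal weight per cell, 0.13 after thinning and 0.54 with the non-lymphoid filter, where Procr was 0.40, Cald1 0.93, Gng11 0.33, Sparc 0.71 and Dcpp3 0.62. The LN lipid list median was -0.01 without the Cd79 and keratin limits. In the tumour, Stmn1 was 0.04 with at least 2 Foxp3 UMIs, 0.15 without the Cd79 and keratin limits and 0.07 with the non-lymphoid filter. With at least 2 Foxp3 UMIs, Clec4e was -1.81, Wfdc17 -0.98 and Tnf -1.81, and without the deepest cell -2.63, -1.80 and -2.63. With a Cd4 UMI, Clec4e was -0.23 and Ikzf4 -1.39. Without cells with 2 myeloid UMIs, Tnf was -0.40 and Mmp12 0.13.

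Between tumour and LN Treg cells, the suppression and the TNF receptor and NF-kB medians were -0.04 and -0.47 without the Cd79 and keratin limits, where Itgb1 was 0.18. With a Cd4 UMI, Penk was -0.82, Ikzf4 -1.19, Ccr2 -0.08, Ccr7 0.26 and Cd274 -0.17. After thinning, Penk was -1.73, Il7r -1.04 and Rbx1 0.10. Cxcl2 was -0.39 without cells with 2 myeloid UMIs, -0.81 with the non-lymphoid filter and -0.38 without the deepest cell, where Fcer1g was -0.10.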

Other observations

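Some effector genes lay below the level used in the report but differed widely in the LN. Il1r2, a decoy receptor for interleukin 1, stood at 57.1 CPM in LN Treg cells and 5.25 CPM in LN Foxp3-zero T cells (log2 ratio 3.45, 2.79 to 4.09). Prdm1 (Blimp-1), a transcription factor of effector Treg cells, stood at 38.1 and 4.11 CPM (3.22, 2.43 to 3.98), and Batf, which acts in the same cells, at 126 and 30.5 CPM (2.05, 1.68 to 2.40). The skin and lung homing receptor Ccr4 stood at 23.4 and 3.88 CPM (2.62, 1.64 to 3.49), and the integrin chain Itgae, which binds epithelium, at 52.7 and 12.8 CPM (2.06, 1.46 to 2.60). In the tumour Treg cells these genes gave 5, 5, 3, 1 and 2 UMIs in the same order.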
